A study of Mus musculus with 4 samples.

Results

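Conventional CD4 T cells are the helper cells of adaptive immunity: they read peptides on MHC class II, activate B cells and dendritic cells through CD40 ligand (Cd40lg), and release cytokines such as interferon gamma. In a tumour they stand beside regulatory T cells, which also carry CD4 but express Foxp3 and dampen the response, and beside CD8 T cells, which kill target cells. The cells described here were chosen by their own raw counts, as the tumour barcodes with at least 2 unique molecular identifiers (UMIs) of Cd3d, Cd3e and Cd3g together, at least 1 UMI of Cd4, at most 2 of Lyz2, and none of Foxp3, Cd8a, Cd8b1, Trdc or C1qa. They numbered 125 in the KO tumour library and 61 in the WT tumour library, 186 of the 8675 tumour cells that had at least 500 UMIs, at least 200 genes and no more than 10% mitochondrial UMIs.

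The study set Ndufa4-deficient mice (KO) against wild-type mice (WT), both male, of C57BL/6 background and 8 weeks old. B16-F10, a mouse melanoma line, was implanted under the skin, and at day 18 tumour cells bearing CD45, a marker of leukocytes, were sorted, as were spleen cells bearing CD45 and the myeloid marker CD11b. The design text gives 3 mice pooled per genotype, and each of the 2 genotypes in each of the 2 organs stood as 1 droplet library, so no difference below has a replicate check and no p-value was computed. All square brackets hold 95% intervals for counting error only, not for the spread between mice or cells. Ndufa4 encodes a small protein of complex IV (cytochrome c oxidase), where the respiratory chain hands electrons to oxygen. The labels name the genotype alone, with no allele and no cell type in which the gene was lost.

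The KO cells were read more deeply, with a median of 7823 UMIs and 2620 genes per cell in KO, against 6348 UMIs and 2233 genes in WT. Their UMIs summed to 1123259 in KO and 373136 in WT, so 1 UMI was worth 0.890 CPM in KO and 2.68 CPM in WT, where CPM are UMIs scaled to the same fixed total in each library. A single KO cell of 71266 UMIs held 6.34% of the KO sum. The tumour libraries shared 6 barcodes, 4 of them among kept cells, and none belonged to a conventional CD4 T cell.

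Ndufa4 itself, on the minus strand of chromosome 6 at 11900292 to 11907497 (GRCm38), had 8 UMIs in 5 of the 125 KO cells, against 94 UMIs in 35 of the 61 WT cells. These were 7.12 CPM in KO and 252 CPM in WT, a log2 KO/WT ratio of -5.14 [-6.40, -4.11]. The targeted gene was thus low in the library labelled KO in these cells too. The ratio was -5.39 in regulatory T cells and -7.22 in CD8 T cells of the same libraries.

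The label was checked against genes that did not choose the cells. Cd40lg stood at 77.5 CPM in KO and 48.2 CPM in WT conventional CD4 T cells. Regulatory T cells held 2.49 CPM of it in KO and 0 in WT, CD8 T cells 1.79 CPM in KO and 0.190 CPM in WT, and B cells of both libraries none. Icos, a costimulatory receptor of activated T cells, reached 507 CPM in KO and 284 CPM in WT, below the 894 and 753 CPM of KO and WT regulatory T cells and above the 141 and 67.8 CPM of KO and WT CD8 T cells. Tcf7, a transcription factor of naive and memory T cells, was at 215 CPM in KO and 415 CPM in WT, against 8.73 CPM in KO and 2.77 CPM in WT regulatory T cells. Cd40lg and Tcf7 thus marked these cells off from regulatory T cells in both libraries.

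Some cells inside the gate carried regulatory T cell transcripts. Ikzf2, which encodes Helios and marks many regulatory T cells, was at 156 CPM in KO and 541 CPM in WT, against 2266 CPM in KO and 2089 CPM in WT regulatory T cells. At least 1 UMI of Il2ra or Ikzf2 occurred in 40.0% of KO and 37.7% of WT cells, and at least 5 Ikzf2 UMIs in 10 KO and 12 WT cells. The edges of the gate were thin, since Cd4 was sparsely read: exactly 1 Cd4 UMI was found in 31 KO and 26 WT cells, and the median was 3 in KO and 2 in WT. Another 138 KO and 88 WT cells met every condition except that they had no Cd4 UMI, and 17 KO and 9 WT cells missed only by a single Foxp3 UMI.

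Relative to all CD45-sorted cells these helper cells were more frequent in KO, while relative to other T cells the libraries differed by no more than counting error. They made up 2.68% [2.24, 3.19] of kept KO tumour cells and 1.52% [1.16, 1.95] of kept WT tumour cells, a difference of 1.17 percentage points [0.563, 1.77]. Without neutrophils in the denominator the shares were 2.74% in KO and 1.95% in WT. Among gated T cells they were 125 of 1831 in KO (6.83%) and 61 of 697 in WT (8.75%), a difference of -1.92 points [-4.49, 0.330]. Among gated CD4 cells, conventional and regulatory together, they were 46.1% in KO and 45.5% in WT, a difference of 0.603 points [-9.66, 10.7]. CD8 T cells took 24.0% of kept cells in KO and 9.83% in WT, so the higher share of conventional CD4 T cells came with a higher share of other T cells. Shares of a sort sum to the whole, and cell numbers per tumour were not measured.

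**Figure D1:**
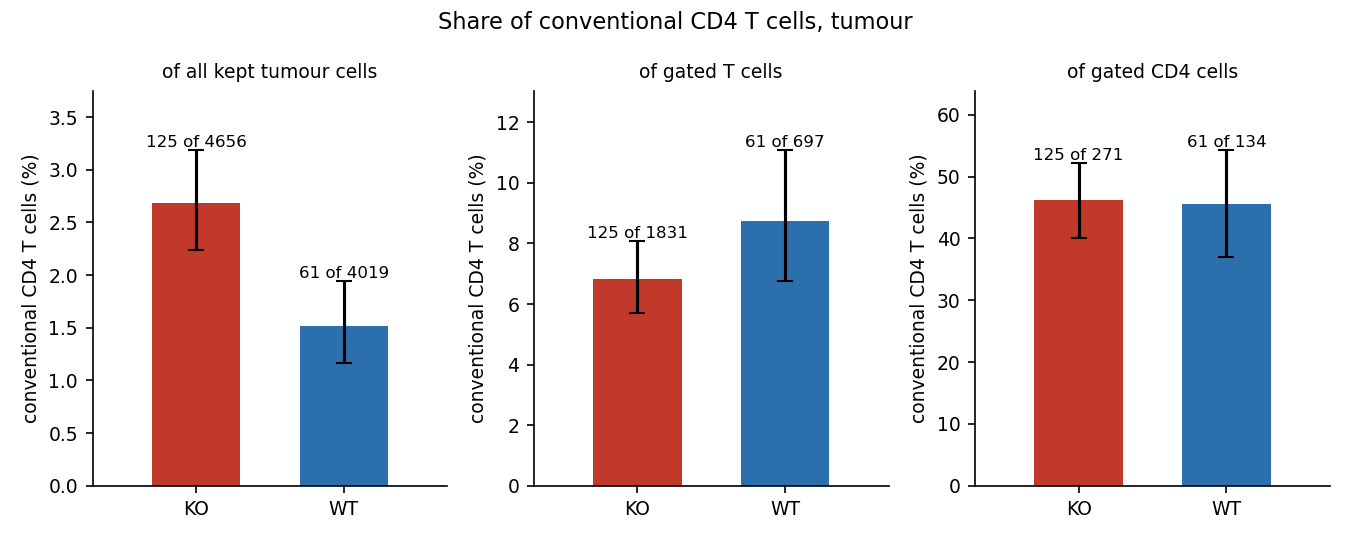
Percentage of conventional CD4 T cells (bars, with exact 95% binomial intervals for counting error) in the KO and WT tumour libraries, out of 3 denominators. The KO bar stands above the WT bar out of all kept cells (2.68% against 1.52%), below it out of gated T cells (6.83% against 8.75%), and close to it out of gated CD4 cells (46.1% against 45.5%).

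Expression was compared by summing the UMIs of each gene over the cells of a library and scaling to CPM. Of 3209 genes with a mean of at least 50 CPM, 446 (13.9%) had a KO level at least 1.5-fold above WT and 364 (11.3%) one at least 1.5-fold below, and the median log2 ratio over all of them was 0.01. These shares are the background against which the main counts of each gene list below are to be read. Under the depth-matched gate described next, 529 genes were at least 1.5-fold higher and 644 at least 1.5-fold lower, so its list counts have another background. In those counts, higher and lower mean past 1.5-fold, a log2 ratio of at least 0.58 or at most -0.58. Because KO cells were deeper, the cells were also gated after thinning every tumour cell to 2000 UMIs, which left 109 KO and 44 WT cells. Values under that depth-matched gate are given beside the lists and genes that it changed most. That gate read the thinned counts, so it changed the cells as well as the depth. After thinning, a Cd4 UMI remained in 57.4% of 122 KO and 52.8% of 53 WT conventional CD4 T cells. A Foxp3 UMI remained in 61.5% of 143 KO and 69.0% of 71 WT regulatory T cells, so some of these could enter. Ratios there came from 44 WT cells of 2000 UMIs each, with few UMIs for most genes, and were given no interval.

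Genes of naive and central memory T cells, which circulate through lymph nodes, were lower in KO over the gate as a whole. Of 10 tested, 9 were lower and none higher, against a background of 11.3% lower, and the list median was -1.04. Lef1, a transcription factor of naive T cells, had 97 UMIs in 54 KO cells and 177 UMIs in 42 WT cells, or 86.4 CPM in KO and 474 CPM in WT (log2 -2.46 [-2.83, -2.09]). Satb1, a chromatin organiser of T cells, stood at 188 CPM in KO and 627 CPM in WT (log2 -1.74 [-2.01, -1.46]). Igfbp4, an insulin-like growth factor binding protein carried by naive T cells, stood at 14.2 CPM in KO and 113 CPM in WT, from 16 UMIs in 5 KO cells and 42 UMIs in 16 WT cells (log2 -2.98 [-3.91, -2.12]).

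The remaining naive genes lay closer to 0. Tcf7 was at -0.95 [-1.24, -0.65], Foxp1, a factor that maintains quiescence, at -1.13 [-1.47, -0.79], and Klf2, which drives S1pr1, at -0.85 [-1.14, -0.55], though at -0.12 under the depth-matched gate. Il7r, the receptor for the survival cytokine interleukin 7, was at 638 CPM in KO and 1150 CPM in WT (log2 -0.85 [-1.02, -0.67]). Ccr7, a lymph node homing receptor, was at -0.70 [-1.19, -0.20] and changed sign to 0.18 when at least 2 Cd4 UMIs were asked for. S1pr1, which lets T cells leave tissue, was the member just inside 1.5-fold, at -0.57 [-0.94, -0.20]. For Lef1, Satb1 and Tcf7 the difference was larger in cells with no Il2ra or Ikzf2 UMI. There they stood at 86.5, 234 and 234 CPM in KO and 665, 924 and 543 CPM in WT. In cells with either, they stood at 86.2, 137 and 195 CPM in KO and 134, 97.1 and 187 CPM in WT. The latter WT values came from 18, 13 and 25 UMIs, and Lef1 was lower in KO in those cells too. Under the depth-matched gate 7 of the 9 naive genes with a ratio were lower and none higher, with a median of -1.12. In regulatory T cells the list median was -0.20 and in CD8 T cells -0.61, where the medians of the same 3209 genes were -0.04 and -0.00.

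Of 12 genes of tissue residency and effector activation, 7 were higher and none lower, with a median of 0.65 in conventional CD4 T cells, 0.27 in regulatory T cells and 0.46 in CD8 T cells. Under the depth-matched gate 3 of 12 were higher and none lower, and the median was 0.14, so the count rested on how the cells were gated. Cxcr6, a chemokine receptor of T cells that stay in tissue, had 364 UMIs in 86 KO cells and 52 UMIs in 18 WT cells, or 324 CPM in KO and 139 CPM in WT (log2 1.22 [0.80, 1.67]). Rgs1, a regulator of G protein signalling that holds T cells in tissue, stood at 630 CPM in KO and 177 CPM in WT (log2 1.83 [1.47, 2.22]). Its relative Rgs2 stood at 205 CPM in KO and 40.2 CPM in WT (log2 2.35 [1.60, 3.21]). The calcium-binding proteins S100a4 and S100a6, the galectin Lgals1 and the adhesion receptor Cd44 were also higher, at 1.07, 1.09, 0.70 and 0.61, but S100a6 was at -0.0822 under the depth-matched gate. Cxcr6, Rgs1 and Rgs2 stayed past 1.5-fold there, at 1.30, 1.28 and 3.15, though these ratios carry no interval and the WT pool was small. Cd69, an early activation and retention marker, was not higher in the main values: it had 308 CPM in KO and 370 CPM in WT (log2 -0.26 [-0.55, 0.03]). Itgb1 and Ahnak, at 0.29 and 0.02, lay near 0.

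Single cells gave the same picture once each was thinned to 2000 UMIs, which 122 KO and 53 WT cells reached and 3 KO and 8 WT cells did not. Naive and central memory UMIs had a median of 3 per cell in KO (quartiles 1 and 6) and 8 in WT (quartiles 3 and 15). Residency and activation UMIs had a median of 13 in KO (quartiles 8 and 19) and 7 in WT (quartiles 2 and 12). The quartiles of the libraries overlapped in both lists.

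At that depth, a UMI of Cxcr6 or Ccl5 (Ccl5 is a chemokine of effector T cells) was held by 68.0% of KO and 37.7% of WT cells (89.6% and 50.8% in KO and WT as deposited), against 6.90% of KO and 6.54% of WT B cells of 6316.5 and 5504 median UMIs. Macrophages with C1qa held one in 23.5% [17.6, 30.3] of KO and 8.47% [6.03, 11.5] of WT cells. The share in macrophages was thus also higher in KO.

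**Figure D2:**
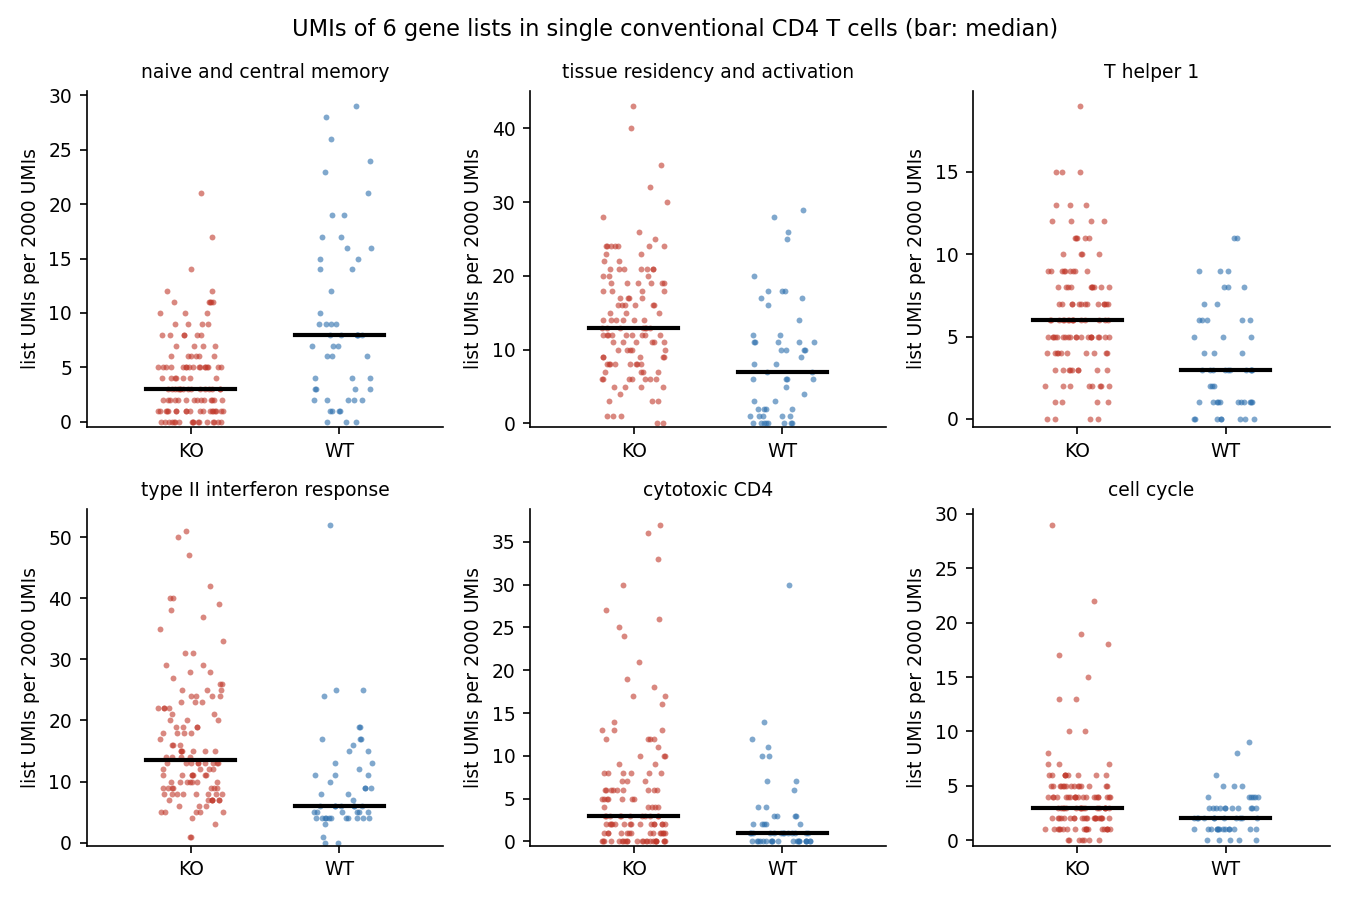
UMIs of 6 gene lists per cell after thinning each conventional CD4 T cell to 2000 UMIs (vertical axes, points are cells, bars are medians), for 122 KO and 53 WT cells. The median lies lower in KO for naive and central memory genes (3 against 8) and higher in KO for residency and activation (13 against 7), T helper 1 (6 against 3), type II interferon response (13.5 against 6), cytotoxic (3 against 1) and cell cycle genes (3 against 2).

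Interferon gamma, the type II interferon, is made chiefly by T and NK cells and acts on target genes for antigen processing, guanylate-binding proteins and immunity-related GTPases. The gamma-activated site, a binding element of that response, holds the palindrome TTCNNNGAA, and IRF factors and the type I interferon complex bind a tandem repeat, GAAA, any 2 bases, GAAA. The promoters of 3 target genes from different places in the response hold these letters between 250 bases before and 50 after the RefSeq start (GRCm38.p6), and are shown because they had ratios past 2-fold and a match in the window. In each, capitals mark the match, lower case the rest, and both strands were searched. The motifs share the letters GAA and were counted separately. Serpina3g (a serpin protease inhibitor, chr12:104235897-104236196, plus strand) and the first of 2 windows of Irf1 (chr11:53769764-53770063, plus strand) hold 1 TTCNNNGAA each. Gbp2 (a guanylate-binding protein, chr3:142620413-142620712, plus strand) holds 1 GAAA repeat, read on the opposite strand.
Serpina3g: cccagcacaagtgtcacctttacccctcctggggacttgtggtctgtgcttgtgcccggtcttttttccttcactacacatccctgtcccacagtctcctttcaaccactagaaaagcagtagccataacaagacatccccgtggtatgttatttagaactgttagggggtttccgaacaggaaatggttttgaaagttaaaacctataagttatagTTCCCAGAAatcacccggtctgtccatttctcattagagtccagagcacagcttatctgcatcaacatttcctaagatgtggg
Irf1: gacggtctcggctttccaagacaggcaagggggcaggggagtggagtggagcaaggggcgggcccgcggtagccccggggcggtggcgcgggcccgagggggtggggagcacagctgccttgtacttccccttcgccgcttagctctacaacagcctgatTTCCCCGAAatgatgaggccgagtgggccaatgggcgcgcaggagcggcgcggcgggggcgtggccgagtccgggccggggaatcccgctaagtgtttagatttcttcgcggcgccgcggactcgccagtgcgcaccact
Gbp2: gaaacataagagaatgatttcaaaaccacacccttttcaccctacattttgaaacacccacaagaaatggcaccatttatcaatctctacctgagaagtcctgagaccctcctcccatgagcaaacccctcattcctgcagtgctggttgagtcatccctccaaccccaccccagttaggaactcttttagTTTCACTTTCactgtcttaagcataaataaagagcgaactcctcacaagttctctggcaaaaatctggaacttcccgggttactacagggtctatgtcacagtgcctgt

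Of the 27 type II genes tested, 19 had a promoter window in the RefSeq table. TTCNNNGAA occurred in 9 of them and the GAAA repeat in 8, against 8.30% and 3.44% of 32841 promoter windows of 300 bases. Such letters describe the window and are no evidence that a factor bound there in these cells.

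Of these 27 type II interferon response genes, 20 were higher in KO and none lower, against a background of 13.9% higher, with a list median of 0.78. Gbp6, another guanylate-binding protein, had 255 UMIs in 72 KO cells and 21 UMIs in 15 WT cells, or 227 CPM in KO and 56.3 CPM in WT (log2 2.01 [1.37, 2.73]). Serpina3g stood at 198 CPM in KO and 67.0 CPM in WT (log2 1.56 [0.96, 2.22]). Irf1, itself an interferon target and a transcription factor for others, stood at 327 CPM in KO and 134 CPM in WT, in 88 KO and 26 WT cells (log2 1.29 [0.86, 1.74]). Gbp2 stood at 221 CPM in KO and 107 CPM in WT (log2 1.04 [0.56, 1.56]). These genes were seen in many cells of each library, and no single cell held more than 13.7% of the KO UMIs of any of the 4.

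Genes for antigen processing moved together within a narrower range. The immunoproteasome subunits Psmb8, Psmb9 and Psmb10 were at 0.77, 0.84 and 0.87, and the proteasome activators Psme1 and Psme2 at 0.80 and 1.03. Tap1, a chain of the peptide transporter, was at 0.61 [0.22, 1.02], while its partner Tap2 was at 0.07 [-0.38, 0.54]. Cd274, the checkpoint ligand PD-L1, was at 129 CPM in KO and 59.0 CPM in WT (log2 1.13 [0.48, 1.85]). Ly6a, the surface protein Sca-1, was at 1442 CPM in KO and 694 CPM in WT and was seen in 123 KO and 43 WT cells (log2 1.06 [0.86, 1.25]). Nlrc5, which activates MHC class I genes, Icam1, an adhesion molecule, and Socs1, a feedback inhibitor, were within 1.5-fold at -0.10, -0.09 and 0.27.

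Per cell of 2000 UMIs, type II genes had a median of 13.5 UMIs in KO (quartiles 9 and 22) and 6 in WT (quartiles 4 and 13). With the depth-matched gate, 17 of 27 were higher and 2 lower, with a median of 0.72. The list median was 0.50 in regulatory T cells and 0.21 in CD8 T cells, and no test of the difference between cell types was possible.

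**Figure D3:**
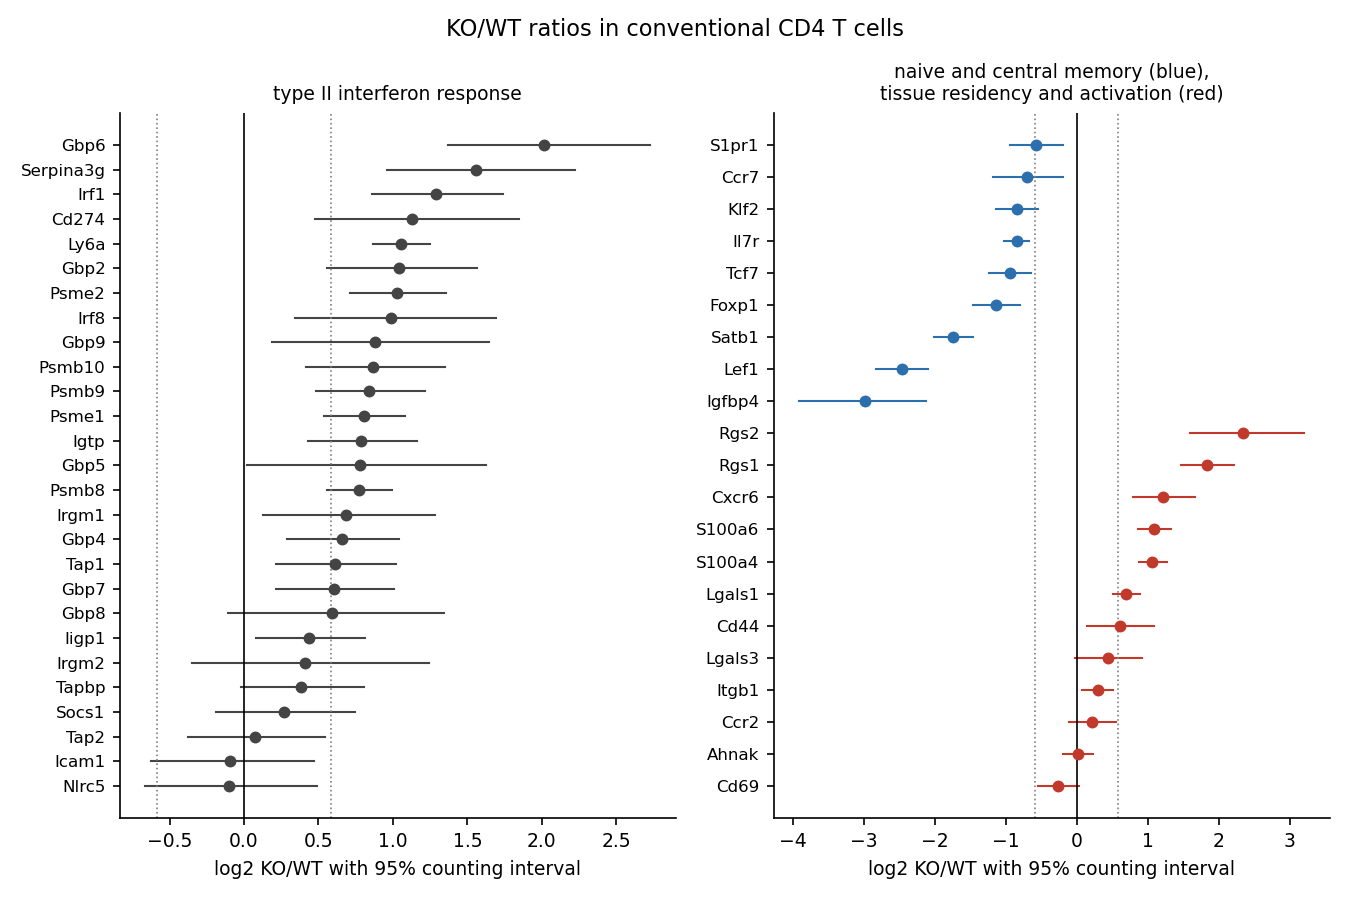
Log2 KO/WT ratios (horizontal axes, dots) with 95% counting intervals (lines) in conventional CD4 T cells, for the 27 tested type II interferon response genes on the left and for naive and residency genes on the right; dotted lines mark 1.5-fold. Type II ratios run between 2.01 (Gbp6) and -0.10 (Nlrc5), and the naive genes shown lie left of 0.

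MHC class I genes and type I interferon genes differed less. Of 10 MHC class I genes, 3 were higher and none lower (median 0.34): B2m, the shared light chain, at 0.59, Calr, a folding helper, at 0.68, and Tapbpl, a peptide editor, at 0.67. The heavy chains H2-K1 and H2-D1 were at 0.26 and 0.25. Of 29 type I interferon genes, 10 were higher and none lower, with a median of 0.20, against 0.23 in regulatory T cells and 0.32 in CD8 T cells. Bst2, or tetherin, stood at 236 CPM in KO and 85.8 CPM in WT (log2 1.46 [0.93, 2.04]), and Ifi27l2a at 1353 CPM in KO and 507 CPM in WT (log2 1.42 [1.20, 1.64]). Under the depth-matched gate 3 of 29 were higher and 5 lower, with a median of 0.0132, and Bst2 was at 0.0132 and Ifi27l2a at 0.56. With the top cell of each gene left out, 14 were higher and none lower, with a median of 0.53, so the type I count depended on the setting. Isg15, a ubiquitin-like antiviral protein, was at 0.91 [0.18, 1.72], but changed sign under the depth-matched gate. The chromosome 1 genes Ifi209 and Ifi213 were at -0.51 and -0.53.

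T helper 1 genes, the programme of interferon gamma-producing helper cells, were higher in 4 of 10 and lower in none, with a median of 0.44. Bhlhe40, a transcription factor that supports cytokine production, stood at 444 CPM in KO and 134 CPM in WT, in 77 KO and 12 WT cells (log2 1.73 [1.31, 2.18]). Ly6c2, a surface protein of effector T cells and monocytes, stood at 199 CPM in KO and 53.6 CPM in WT (log2 1.89 [1.23, 2.63]), and Stat4, which signals for interleukin 12, at 233 CPM in KO and 134 CPM in WT (log2 0.80 [0.36, 1.27], and 0.40 under the depth-matched gate). Cxcr3, Il18r1 and Il18rap, receptors that mark the same programme, were at 0.08, -0.06 and 0.07. Tbx21, its master regulator T-bet, was rare: 48 UMIs in 32 KO cells and 8 UMIs in 8 WT cells.

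Cytokine transcripts were few. Ifng had 58 UMIs in 30 KO cells and 3 UMIs in 3 WT cells, or 51.6 CPM in KO and 8.04 CPM in WT (log2 2.68 [1.06, 5.00]). Il2 had 10 UMIs in KO and 1 in WT, Tnf 19 in KO and 5 in WT, Il21 2 in KO and 0 in WT, Il17a 7 in KO and 1 in WT, and Il4 none in either library. After thinning, a UMI of Ifng, Il2 or Tnf was held by 16.4% [10.3, 24.2] of KO and 3.77% [0.460, 13.0] of WT cells, against 8.62% of KO and 2.80% of WT B cells, which should lack Ifng and Il2. The intervals of the B cell shares were wide, at [2.86, 19.0] in KO and [0.582, 7.98] in WT, and overlapped those of the helper cells in each library.

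Other helper programmes were mostly below the level that allows a comparison. Gata3 of T helper 2 cells was at 115 CPM in KO and 110 CPM in WT (log2 0.06). Rora, shared by T helper 17 and tissue T cells, was at 0.49. Of follicular helper genes, Cxcr5 had 2 UMIs in KO and 1 in WT and Bcl6 24 in KO and 5 in WT, while Slamf6 was lower at -0.87 and Sh2d1a, its adaptor SAP, higher at 0.60. Areg, which encodes the tissue repair factor amphiregulin and was singled out after its values were seen, had 62 UMIs in 11 KO cells and none in WT.

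Costimulatory and inhibitory receptors split. Icos was higher at 0.84 [0.54, 1.15], Cd40lg at 0.68, from 87 UMIs in KO and 18 in WT, and Tnfsf8, which encodes CD30 ligand, at 0.62 [0.01, 1.28]. After thinning, Cd40lg was found in 16.4% of KO and 5.66% of WT cells, a difference whose interval of -0.438 to 19.2 points includes 0. It was found in none of 58 KO and 107 WT thinned B cells, with exact upper limits of 6.16% in KO and 3.39% in WT. Cd27 was lower, at 93.5 CPM in KO and 163 CPM in WT (log2 -0.81 [-1.28, -0.33]). Cd28, Tnfrsf4 and Tnfrsf9, which encode CD28, OX40 and 4-1BB, were at 0.05, 0.04 and -0.03. Among inhibitory receptors, Pdcd1, which encodes PD-1, was at 104 CPM in KO and 45.6 CPM in WT (log2 1.19 [0.45, 2.02], and 0.50 with members thinned), while Ctla4 was at 0.44 and Tox, a factor of exhausted T cells, at -0.07. Lag3 and Tigit were rare, with 17 UMIs in KO and 1 in WT for Lag3 and 9 in KO and 2 in WT for Tigit.

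Ctla4 differed between cells with and without regulatory T cell transcripts in WT, and little in KO. Where neither Il2ra nor Ikzf2 was seen, it stood at 237 CPM in 75 KO cells and 33.4 CPM in 38 WT cells, the latter from 8 UMIs. Where either was seen, it stood at 281 CPM in 50 KO cells and 471 CPM in 23 WT cells. Within the cells without either gene the residency list had 9 of 12 genes higher and a median of 1.23. More genes of all kinds were higher in those cells, 685 against 446 over the whole gate, and the median of the 3209 genes was 0.11.

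Cytokine signalling genes were more often lower than higher, and T cell receptor signalling genes showed no stable direction. Of 13 interleukin 2 response and cytokine signalling genes, 5 were lower and 1 higher: Il2ra, the high-affinity receptor chain, at -1.19 [-1.83, -0.55] (0.11 with no Lyz2, Cd79a or Tyrobp UMIs), Il4ra at -1.13, Il6ra at -1.15, Il6st at -1.49 and Bcl2, a survival factor, at -1.14 [-1.52, -0.76], against Cish, a feedback inhibitor, at 0.76. Under the depth-matched gate 3 were higher and 3 lower. Il2rb and Il2rg, the shared receptor chains, were at 0.32 and 0.27. Of 15 T cell receptor signalling genes, 3 were lower and none higher: Cd2ap at -1.43, the kinase Prkcq at -0.72 and the phospholipase Plcg1 at -0.66. That list's median of -0.14 kept its sign in 12 of 17 alternatives; under the depth-matched gate 5 were higher and 1 lower, with a median of 0.25, and Prkcq was at 1.41. Lck, Zap70 and Lat, the proximal kinases and adaptor, were at -0.15, 0.18 and -0.14.

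Immediate early genes, which stimulation in the animal and tissue dissociation both raise, were higher in 9 of 23 and lower in 3. Fosb stood at 302 CPM in KO and 64.3 CPM in WT (log2 2.23 [1.63, 2.89]), and Fos, Dusp1 and Egr1 were at 1.16, 1.49 and 1.48. Nr4a1, which follows T cell receptor stimulation closely, was at -0.62 [-1.36, 0.15], and the heat shock genes Hspa1a and Hspa1b were at -0.96 and -0.77, with 72.9% and 49.3% of their KO UMIs in 1 cell. The same list was higher in both other gates, with medians of 0.49 in regulatory T cells and 0.92 in CD8 T cells, against 0.35 in conventional CD4 T cells. What the tissue handling of each library contributed was not tested.

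Cytotoxic genes, which a minority of helper cells can express, were higher in 8 of 9 and lower in 1, with a median of 1.32. For that median Xcl1, with no WT UMI, was given a floor of 3 WT counts. Klrk1, the activating receptor NKG2D, stood at 188 CPM in KO and 48.2 CPM in WT, in 49 KO and 7 WT cells (log2 1.96 [1.27, 2.74]). Fasl, the death ligand, stood at 95.3 CPM in KO and 32.2 CPM in WT (log2 1.57 [0.70, 2.56]), and Ccl5 at 1158 CPM in KO and 624 CPM in WT (log2 0.89 [0.69, 1.10]). Gzmb, which encodes granzyme B, stood at 248 CPM in KO and 99.2 CPM in WT, in 42 KO and 13 WT cells (log2 1.32 [0.83, 1.86]). It was at -1.07 under the depth-matched gate, where 5 of 8 cytotoxic genes were higher, 2 lower and the median 0.69. Regulatory T cells, some of which can enter that gate, held 938 CPM of Gzmb in KO and 1017 CPM in WT. Their part in the value of -1.07 was not tested. The chemokine Ccl4 was lower at -0.93 [-1.55, -0.28]. NK cell marker genes summed to 264 CPM in KO and 26.8 CPM in WT over the gate, with all 8 markers detected in KO and 3 in WT. Without the 12 KO and 1 WT cells that had over 20000 UMIs, at least 10 MHC class II UMIs or at least 5 Tyrobp UMIs, 8 of 9 cytotoxic genes were higher and the median was 1.18, an alternative chosen after seeing the data.

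Cell cycle genes were higher in all 10 that passed the filter on low levels, with a median of 1.22, but rested on few cells. Mki67, a protein of dividing cells, had 142 UMIs in 31 KO cells and 4 UMIs in 3 WT cells (log2 3.56 [2.17, 5.46]), and 45.1% of the KO UMIs came from the cell of 71266 UMIs. It was at 0.35 with a mitochondrial limit of 20% in place of 10%, which ended its call. Top2a, a topoisomerase of the S and G2 phases, had 170 UMIs in 33 KO cells and 9 UMIs in 5 WT cells (log2 2.65 [1.69, 3.80]), with 54.1% in 1 KO cell. Mki67 or Top2a was seen in 37.6% of KO and 13.1% of WT cells as deposited, and in 14.8% of KO and 7.55% of WT cells after thinning, a difference of 7.21 points [-4.35, 15.9] that includes 0. Without the doubted cells named above, 7 of 10 genes were higher and the median was 0.82. With the same cells thinned, 5 were higher (median 0.65), and under the depth-matched gate 4 were (median 0.43).

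Among respiratory chain genes, the largest share of higher genes was in complex I. Of 34 complex I genes, 11 were higher and none lower, with a median of 0.39. Ndufa12, an accessory subunit, was at 1.47 [0.71, 2.31] and Ndufv2, a core flavoprotein-arm subunit, at 1.13 [0.45, 1.89]. For complex IV, the complex of Ndufa4, 1 of 11 other nuclear genes was higher, Cox5a at 0.70 [0.34, 1.09], and the median was 0.41. Complex III had 2 of 9 higher (median 0.23) and ATP synthase 3 of 17 (median 0.34), with Atp5g3, its c ring subunit, at 0.98. The 13 mitochondrial DNA genes all lay within 1.5-fold (median -0.07), mt-Co1 at 0.10 and mt-Nd2 at -0.25 among them. The shares of higher genes in complex III, complex IV and ATP synthase were 2 of 9, 1 of 11 and 3 of 17, against 13.9% of all genes. Under the depth-matched gate 7 complex I genes were higher and 3 lower, with a median of 0.13 and Ndufv2 at 0.0836, the complex IV and ATP synthase medians were 0.0408 and 0.0361, and Cox5a was at -0.17. Without the doubted cells, 6 of 34 complex I genes were higher and the median was 0.32.

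Glycolysis genes were higher in 5 of 12 and lower in none (median 0.47), but under the depth-matched gate the list turned, with none higher, 4 lower and a median of -0.37. Its medians were -0.25 in regulatory T cells and 0.13 in CD8 T cells. Gapdh stood at 1422 CPM in KO and 866 CPM in WT (log2 0.72 [0.54, 0.89]) and Hk1, a hexokinase, at 80.1 CPM in KO and 40.2 CPM in WT (log2 1.00 [0.20, 1.89]), and both changed sign under the depth-matched gate. Pdk1, a kinase that inhibits pyruvate dehydrogenase, was lower at 41.0 CPM in KO and 142 CPM in WT (log2 -1.79 [-2.40, -1.20]). Txnip, which restrains glucose uptake, was lower at 195 CPM in KO and 622 CPM in WT (log2 -1.67 [-1.95, -1.40]), as it was in regulatory T cells (-1.81) and CD8 T cells (-1.19). Of the 4 stress genes tested, the chaperonin Hspd1 was higher at 0.70, Ddit4 lower at -1.05, and Atf4, the central factor of the integrated stress response, at -0.04.

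**Figure D4:**
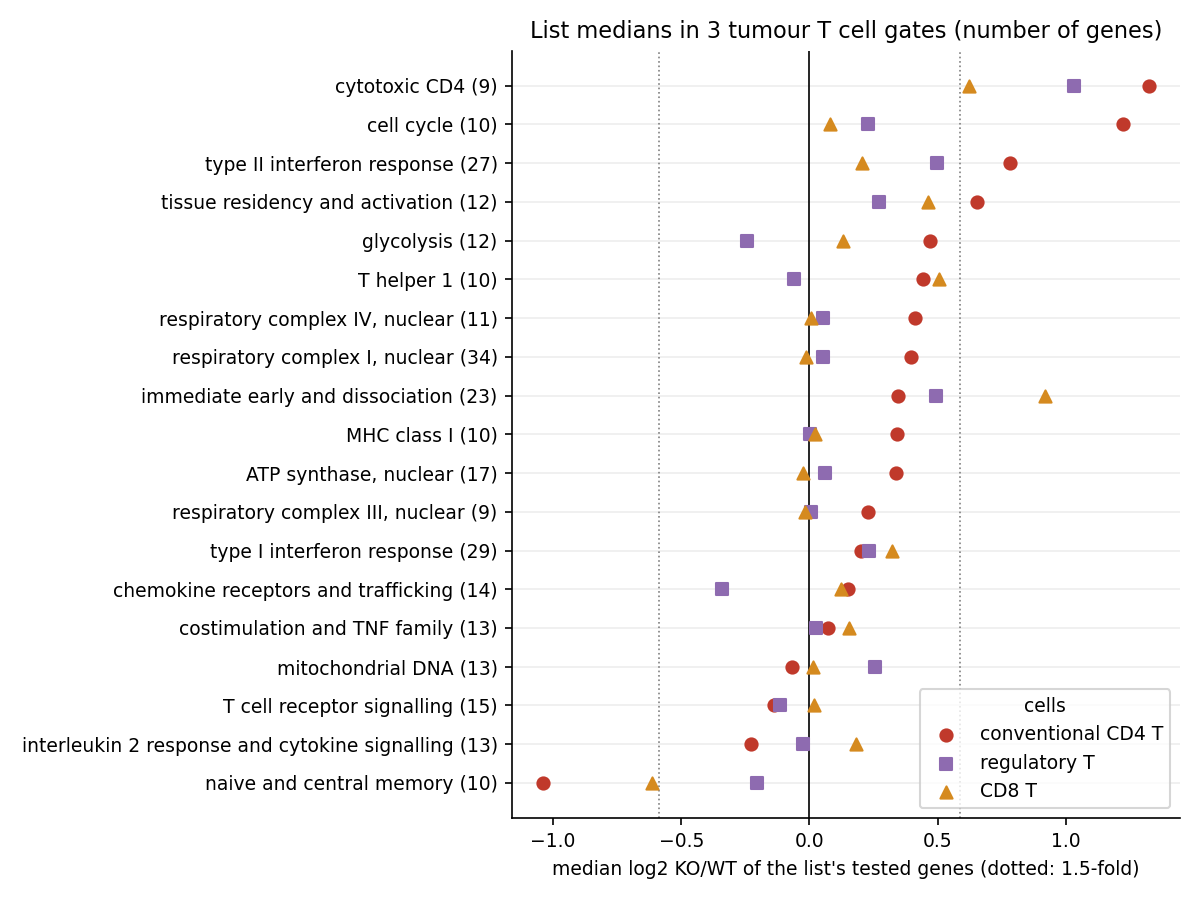
Median log2 KO/WT ratio of each gene list with at least 9 tested genes (rows, gene numbers in parentheses) in conventional CD4 T cells (circles), regulatory T cells (squares) and CD8 T cells (triangles) of the tumour; dotted lines mark 1.5-fold. Naive genes sit lowest in conventional CD4 T cells (-1.04), and cytotoxic (1.32), cell cycle (1.22) and type II interferon genes (0.78) sit highest.

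The 12 genes with the strongest pooled ratios upward were of different kinds when single cells were counted. Gzmd, Gzmc and Gzme, granzymes of strongly activated killer cells, came wholly or mostly from 1 KO cell of 24818 UMIs, which also held 29 UMIs of Tyrobp, an adaptor of NK and myeloid cells, and 2 of the NK receptor Ncr1. That cell held all 226 KO UMIs of Gzmd, all 113 of Gzme and 327 of 335 of Gzmc. Another cell held 89.3% of the KO UMIs of Xcl1, a chemokine for dendritic cells. Hist1h1b, a linker histone of S phase, had 84.7% and Ly6d, a surface protein of lymphoid and plasmacytoid precursors, 94.4% of its KO UMIs in 1 cell each, and the Ly6d cell also held 42 UMIs of Siglech, a plasmacytoid dendritic cell receptor. Where WT had 0 UMIs, a floor of 3 counts stood in for the WT count. It gave ratios of 25.0-fold for Gzmd, 22.5-fold for Pclaf, a replication clamp partner, and 18.6-fold for Xcl1. The lower ends of their log2 intervals were 4.34, 4.18 and 3.90 in that order. These ratios describe the libraries and not most of their cells.

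Cxcl10, Furin and Zeb2 were spread over more cells, but the Zeb2 ratio did not hold in every setting. Cxcl10, an interferon-induced chemokine for Cxcr3-bearing T cells, had 422 UMIs in 28 KO cells and 3 UMIs in 2 WT cells, or 376 CPM in KO and 8.04 CPM in WT (log2 5.55 [3.99, 7.83]). Of its KO UMIs, 26.8% were in 1 cell. Its ratio was also high in regulatory T cells (3.22) and CD8 T cells (2.23). Furin, a proprotein convertase that matures transforming growth factor beta, had 249 UMIs in 40 KO cells and 8 UMIs in 7 WT cells, or 222 CPM in KO and 21.4 CPM in WT (log2 3.37 [2.37, 4.60]). Zeb2, a factor of terminal effector T cells, had 110 UMIs in 33 KO cells and 3 UMIs in 3 WT cells (log2 3.61 [2.02, 5.91]). Plac8 stood at 241 CPM in KO and 26.8 CPM in WT, with 39.5% of its KO UMIs in 1 cell (log2 3.17 [2.27, 4.25]). Over 17 alternative settings Furin stayed between 3.01 and 3.69 and Cxcl10 between 3.82 and 6.66, while Plac8 ran between 0.81 and 5.01. Zeb2 ran between -0.82, under the depth-matched gate, and 3.90.

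Genes with the strongest ratios downward had at most 24.2% of their WT UMIs in 1 cell (Cd55). The WT cells that held a UMI of them ran between 16 (Igfbp4) and 51 (Txnip) of 61. Besides Ndufa4, Igfbp4, Lef1, Ikzf2, Satb1, Txnip and Pdk1, these genes included Ctse, BE692007, Cd55 and Klf3. Ctse, the aspartic protease cathepsin E, had 43 UMIs in 33 KO cells and 63 UMIs in 36 WT cells (log2 -2.14 [-2.74, -1.56]). Klf3, a transcriptional repressor, stood at 84.6 CPM in KO and 247 CPM in WT (log2 -1.54 [-1.97, -1.11]), and Cd55, the complement regulator, at 23.1 CPM in KO and 88.4 CPM in WT (log2 -1.93 [-2.73, -1.15]). Klf3 and Ikzf2 were at -0.31 and -0.35 under the depth-matched gate, both inside 1.5-fold, while Lef1, Satb1, Txnip, Pdk1, Ctse and Cd55 stayed past it at -1.70, -1.97, -1.19, -1.96, -1.60 and -1.31. Ctse, Ikzf2 and Cd55 lie on chromosome 1, which holds 6.73% of the tested genes.

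**Figure D5:**
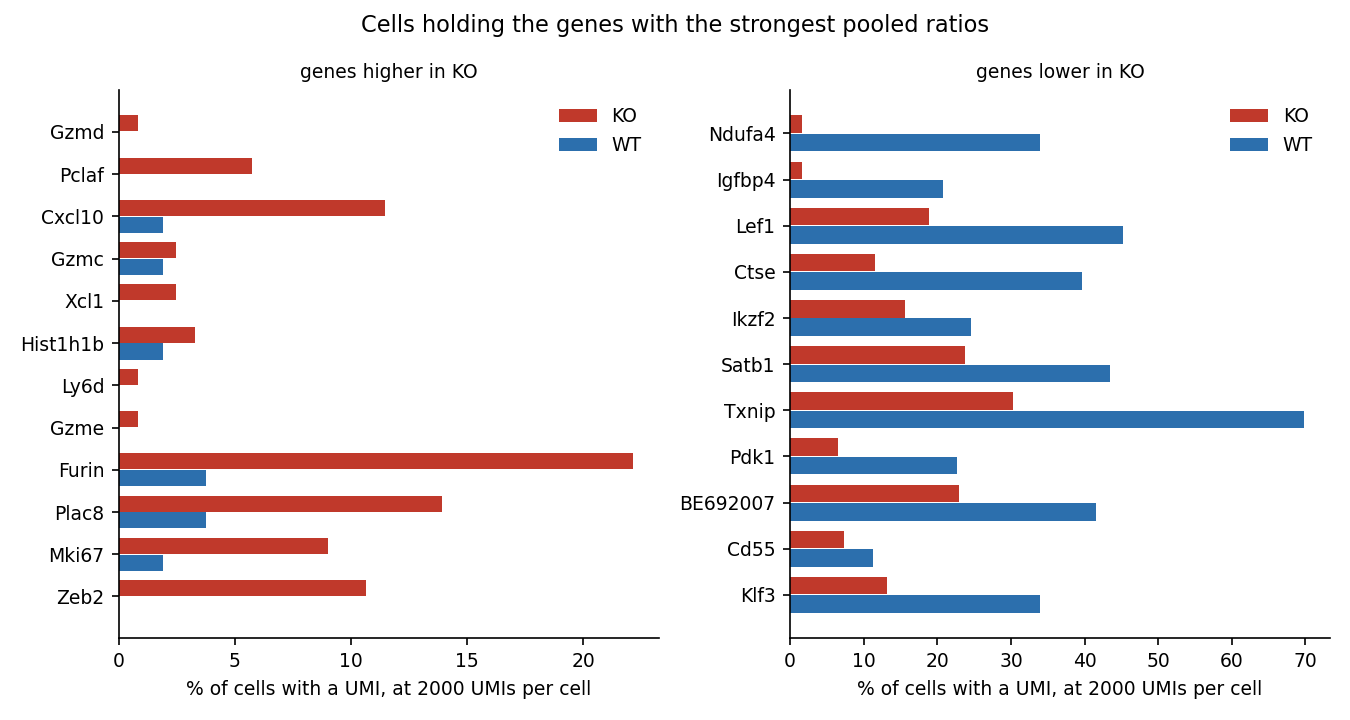
Percentage of conventional CD4 T cells with a UMI after thinning to 2000 UMIs (horizontal axes) for genes with the strongest pooled ratios upward (left) and downward (right), KO bars above WT bars. Gzmd and Gzme are seen in 0.820% of KO cells, Furin in 22.1% of KO and 3.77% of WT cells, and Lef1 in 18.9% of KO and 45.3% of WT cells.

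Transcripts of other cell types entered the gate unequally. Dendritic cell markers summed to 689 CPM in KO and 174 CPM in WT, with all 10 markers detected in KO and 4 in WT, and 1 KO cell held 273 of their 774 UMIs. Macrophage and monocyte markers summed to 296 CPM in KO and 174 CPM in WT. Ly6c2, counted above among T helper 1 genes, gave 223 of their 332 KO UMIs and 20 of their 65 WT UMIs. The higher KO sum of that list thus rested on Ly6c2. B cell markers summed to 168 CPM in KO and 343 CPM in WT. Neutrophil markers summed to 5.34 CPM in KO and 91.1 CPM in WT, erythroid markers to 2.67 CPM in KO and 21.4 CPM in WT, and C1qa was 0 by the gate. Doublet scores marked 9 of the 125 KO cells and none of the 61 WT cells. Without the 12 KO cells and 1 WT cell doubted above, which held 23.3% of the KO and 1.91% of the WT UMIs, 19 of 27 type II genes were higher with a median of 0.81, and 9 of 10 naive genes lower with a median of -1.25. The type II and naive differences were thus as large without those cells.

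Beside regulatory T cells of the same library, conventional CD4 T cells had, in both genotypes, more Tcf7, Ly6c2, Gramd3, Evl, Itgb1, Klf2, Ms4a4b and Gm2682. Itgb1, the beta 1 integrin, stood at 738 CPM against 101 CPM in KO and 603 CPM against 73.5 CPM in WT. They had less Lag3, Ube2c, Klrg1, Fgl2, Il10, Cenpf, Chchd10 and Neb. Il10, the anti-inflammatory cytokine, stood at 4.45 CPM against 155 CPM in KO and 8.04 CPM against 61.0 CPM in WT. Beside CD8 T cells they had more Il6ra, Trat1, Tmem64, Iigp1, Maf, Ifitm2, Ass1 and Slfn5, with Maf, a factor of interleukin 10 and 21 producing helper cells, at 409 CPM against 25.6 CPM in KO and 327 CPM against 52.3 CPM in WT. They had less Gzmf, Ccl3, Nrgn, Prf1, Lag3, Klrc1, Ube2c and Ccl4, with Prf1, the pore-forming perforin, at 33.8 CPM against 576 CPM in KO and 21.4 CPM against 358 CPM in WT. The gates were set by Foxp3, Cd4 and Cd8 counts, so these differences describe the gates and were given no test.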

How the data were processed

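The deposited values are whole-number UMI counts per gene and barcode from a 10x Chromium 3' v3.1 kit, written by Cell Ranger 6.0.0 per the file headers. The submitters' processing notes name Cell Ranger 3.1, Seurat 3.1.4 and 3.1 and the builds mm10 and GRCm38. The extraction protocol allows more mice per pool than the design text. Cells were gated on raw counts and not clustered, and doublets were kept in the main values. Regulatory T cells had the same gate with at least 1 Foxp3 UMI, and CD8 T cells Cd8a or Cd8b1 without Cd4. Computed values were CPM of summed UMIs, exact conditional binomial intervals for ratios, Clopper-Pearson intervals for shares and Newcombe intervals for their differences. Cells were thinned to 2000 UMIs with a fixed seed, and the ratio code was tested on simulated data. The gate and gene lists were chosen with earlier results of these data known. Named genes were the 12 highest and 12 lowest ratios by the interval bound nearest 0, up to 4 at each end of a list, a set of helper cell genes, and 8 at each end against each other gate, apart from genes said to be singled out; some named by the rule, and 1 alternative that leaves out cells by such a gene, are not reported here. Intervals and floors cover counting error only. Software was Python 3.11.15, numpy 2.4.6, scipy 1.17.1, scanpy 1.11.5 (Scrublet) and matplotlib 3.10.9. Promoters came from RefSeq and gene positions from GENCODE for GRCm38.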

Additional observations from a re-analysis of the deposited data

Results flagged for a closer look

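Several genes had KO/WT ratios past 1.5-fold in opposite directions in conventional CD4 T cells and in another T cell gate of the same libraries, with counting intervals that excluded 0 in both; the difference between the cell types was not tested. Beside regulatory T cells, the log2 ratios in conventional CD4 T cells and regulatory T cells were -0.70 and 2.71 for Ccr7, -0.81 and 0.76 for Cd27, -0.85 and 0.99 for Klf2, 3.37 and -0.76 for Furin, 3.61 and -0.64 for Zeb2, and 3.56 and -0.89 for Mki67. Ly6d was at 5.56 and -1.67, with 94.4% of its KO UMIs in 1 helper cell. Ccr7 and Klf2 were low in regulatory T cells, at 36.2 CPM in KO and 5.54 CPM in WT for Ccr7. The ratio in conventional CD4 T cells was not stable for most of these: under other settings it reached 0.18 for Ccr7 (at least 2 Cd4 UMIs), 0.62 for Cd27, -0.12 for Klf2 and -0.82 for Zeb2 (gate after thinning), 0.35 for Mki67 (mitochondrial limit of 20%) and -0.51 for Ly6d (without cells of 10 or more MHC class II UMIs), while the lowest value for Furin was 3.01. Beside CD8 T cells, the ratios in conventional CD4 T cells and CD8 T cells were -0.96 and 1.86 for Hspa1a, -0.77 and 1.17 for Hspa1b, and -1.19 and 0.99 for Il2ra. In conventional CD4 T cells 1 KO cell held 72.9% of the Hspa1a and 49.3% of the Hspa1b UMIs of KO, and the ratios reached 0.63 and 1.01 with no Mki67 or Top2a cells, while Il2ra reached 0.11 with no Lyz2, Cd79a or Tyrobp UMIs.

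The spleen libraries, which the comparisons above do not use, held cells inside the same gate although they were sorted for CD11b: 57 of 6952 kept KO cells (0.820%) and 23 of 7530 kept WT cells (0.305%). Ndufa4 had 0 UMIs in the KO and 29 UMIs in the WT spleen cells. Lef1 stood at 495 CPM in KO and 520 CPM in WT, and Cxcr6 at 32.2 CPM in KO and 13.0 CPM in WT.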

How the results depend on the processing

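Each value was computed again under alternatives; those that leave out deep cells or cells with MHC class II or Tyrobp UMIs were chosen after seeing the data. Of gene ratios, 2962 stayed within their interval, 321 moved and 42 changed sign. A sign change was counted only where the main ratio was past 1.5-fold. Smaller ratios that changed sign are thus among the 2962 and the 321. Of list medians, 402 stayed and 23 moved. These counts hold medians inside 1.5-fold that changed sign, such as that of the glycolysis genes. The type II interferon median stayed between 0.68 and 0.94 and the naive median between -1.44 and -0.98. No paired analysis was possible because each genotype is 1 library per organ. The 446 higher and 364 lower genes became 977 and 937 at 20 CPM, 77 and 42 at 200 CPM, 2155 and 2745 with no filter beyond 1 UMI in each library, and 135 and 102 at 2-fold. Higher genes were 685 without Il2ra or Ikzf2 cells, where the median of the tested genes shifted to 0.11. Lower genes were 644 with the gate after thinning, 585 with members thinned, and 609 when scaled without mitochondrial, ribosomal and haemoglobin genes. The difference in the share of all kept cells was 0.544 points with no Lyz2, Cd79a or Tyrobp UMIs and at most 2 of S100a8 and S100a9, and that among gated T cells changed sign to 0.112 points with at least 2 Cd4 UMIs. Genes below, all past 1.5-fold in the main values, changed sign. Apart from the cells left out, the cells let in or the counts removed by each setting, the cause was not tested. With the gate after thinning to 2000 UMIs, log2 ratios were 0.62 for Cd27, -0.17 for Cox5a, -0.0286 for Eif2ak2, -0.24 for Gapdh, -1.07 for Gzmb, -0.12 for Hk1, -0.36 for Hspd1, -0.31 for Isg15, 0.18 for Nr4a1, 1.41 for Prkcq, -0.0822 for S100a6, -0.59 for Tpi1, -0.33 for Tubb5, -1.12 for Tyrobp and -0.82 for Zeb2. With members thinned they were 0.86 for Hspa1b, -0.40 for Mcm3, 0.38 for Nr4a1 and -0.0222 for Tnfsf8. With at least 2 Cd4 UMIs they were 0.18 for Ccr7 and 0.29 for Hspa1b. With no Lyz2, Cd79a or Tyrobp they were -0.79 for Gzmc, 0.11 for Il2ra, -0.21 for Ly6d, 0.38 for Nr4a1 and -0.48 for Tubb5. With no Il2ra or Ikzf2 they were 0.0209 for Ccl4, -0.0787 for Gzmc and 1.81 for Nr4a1. With equal weight per cell Tubb5 was at -0.0794. With no Mki67 or Top2a they were 0.63 for Hspa1a, 1.01 for Hspa1b, -0.14 for Mcm3, -1.73 for Stmn1 and -0.22 for Tubb5. With the top cell of each gene left out they were 0.20 for Hspa1b and -0.18 for Ly6d. Without cells of 10 or more MHC class II UMIs they were -0.51 for Ly6d and 0.0393 for Nr4a1. Without deep, MHC class II or Tyrobp cells they were -0.24 for Ly6d, -0.17 for Tubb5 and -0.54 for Tyrobp. Depth limits rare genes most, since 3 UMIs are 2.67 CPM in KO and 8.04 CPM in WT.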

Other observations

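Most trafficking genes, some of which are also in the naive or residency list, were within 1.5-fold. Of 14 chemokine receptor and trafficking genes, 2 were higher and 1 lower in KO, and the median was 0.15. Cxcr4, the receptor for Cxcl12, was at 89.0 CPM in KO and 37.5 CPM in WT (log2 1.25 [0.43, 2.17]). Gpr183, an oxysterol receptor that guides helper cells, was at 358 CPM in KO and 249 CPM in WT (0.52), and the integrins Itgal, Itga4 and Itgb7 were at 0.31, -0.25 and -0.18. Ccr2, an inflammatory chemokine receptor, was at 0.22.

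Genes that were singled out after their values were seen included Itgae, an integrin of resident T cells and many regulatory T cells, which went against most of its list with 8 UMIs in 4 KO cells and 25 UMIs in 8 WT cells (log2 -3.23 [-4.59, -2.04]). Il12rb2, the interleukin 12 receptor chain of T helper 1 cells, had 59 UMIs in 30 KO cells and 2 UMIs in 2 WT cells (log2 3.29 [1.38, 6.37]). Il22 had 23 UMIs in KO, 22 of them in 1 cell, and none in WT.

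Chromosome 1 held 6.87% of all genes at least 1.5-fold lower in KO and 8.30% of those at least 1.5-fold higher. Ctse was at -2.14 in conventional CD4 T cells, -2.25 in regulatory T cells and -2.28 in CD8 T cells. Cd55 was at -1.93, -0.82 and -0.77 in the same order of cell types.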
